A study of Mus musculus with 8 samples.

Results

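The ATF4 pathway genes described here are 40 genes chosen by symbol: the transcription factor gene Atf4 and its relatives, stress effectors, enzymes of serine, one-carbon and amino acid synthesis, and 12 cytosolic tRNA synthetases. All 40 were found among the 24907 gene symbols of the count table, and all 40 passed the filter on low counts. RNA sequencing had been done on 8 libraries of ASZ001, a mouse basal cell carcinoma line, with 2 libraries in each of 4 groups. Knockdown cells carried an shRNA that targets Tgfbr1, a gene for a TGF-beta receptor, and NS cells carried a non-silencing shRNA. Knockdown cells and NS cells were each given Dox and 4OHT (genotype labelled RasV12, an activated Ras) or DMSO. No library had the 2 drugs without RasV12, so effects of the drugs and of Ras cannot be told apart, and "Ras" stands for both. The labels name no second shRNA against Tgfbr1. Loss of Tgfbr1 and other differences between knockdown and NS cells therefore cannot be told apart, and "knockdown" stands for both. All libraries come from 1 line. Whether the duplicates were grown as separate cultures is not stated, so p-values reflect the spread of these libraries alone, and that spread may be technical. Doses and treatment times are not given.

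ATF4 is the main effector of the integrated stress response. Kinases that sense amino acid shortage, unfolded protein in the endoplasmic reticulum, heme deficiency or double-stranded RNA phosphorylate the initiation factor eIF2, which lowers general translation but favours translation of Atf4 mRNA. ATF4 protein, often paired with a C/EBP protein, then binds C/EBP-ATF response elements and induces genes that make, import and charge amino acids. Because ATF4 is controlled largely in translation, its mRNA is not a measure of its protein.

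The element is shown in the promoters of several members, since ATF4 protein binds it. RefSeq promoters (GRCm38.p6, 250 bases before to 50 after each start) were matched for 33 of the 40 members. The letters TGATGNAA, searched on both strands, were present in 11 of these 33 (33.3%) and in 4.51% of all 27025 genes with a promoter in that table. The list was built around ATF4 targets and also holds genes of other branches, such as Atf6 and Xbp1, so this share is a description. The endoplasmic reticulum stress element (the full CCAAT and CCACG element, either strand) was found in 0 of the 33 and in 0.137% of all genes, which says only that its letters are not in these windows. Stretches upstream of the start are given 5′ to 3′ on the gene's strand, with the element in capitals; TTGCATCA is TGATGCAA read on the other strand.
Chac1, chr2:119351004-119351101, plus strand: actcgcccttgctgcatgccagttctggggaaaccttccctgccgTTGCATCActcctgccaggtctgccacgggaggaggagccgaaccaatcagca
Herpud1, chr8:94386272-94386369, plus strand: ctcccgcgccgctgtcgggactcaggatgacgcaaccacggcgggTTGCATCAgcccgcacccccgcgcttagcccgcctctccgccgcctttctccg
Nupr1, chr7:126625528-126625625, minus strand: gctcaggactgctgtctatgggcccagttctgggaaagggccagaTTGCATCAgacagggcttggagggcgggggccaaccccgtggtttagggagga
Pycr1, chr11:120643799-120643896, minus strand: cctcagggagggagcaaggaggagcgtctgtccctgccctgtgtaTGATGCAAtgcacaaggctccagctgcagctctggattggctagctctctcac
Asns, chr6:7693210-7693277, minus strand: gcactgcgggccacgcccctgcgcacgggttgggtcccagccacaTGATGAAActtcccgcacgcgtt
Aars, chr8:111033685-111033782, plus strand: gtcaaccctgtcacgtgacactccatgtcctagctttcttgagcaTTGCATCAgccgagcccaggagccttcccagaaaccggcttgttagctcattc
Tars, chr15:11399659-11399718, minus strand: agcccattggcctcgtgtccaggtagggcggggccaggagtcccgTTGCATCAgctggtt
The others with the element were Pck2, Gars, Yars and Iars.

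Library totals ran from 12724604.5 to 16233379 counts. Tgfbr1 was at 8.86 to 9.38 CPM (counts per library total scaled by TMM) in knockdown cells under Ras, against 91.6 to 104 CPM in NS cells under Ras. Under DMSO it was at 8.08 to 10.2 CPM in knockdown cells, against 77.1 to 80.4 CPM in NS cells, so all 8 libraries matched their shRNA label. The 6 basal keratinocyte markers Krt5, Krt14, Trp63, Itga6, Col17a1 and Cdh1 were all measured. Their summed level was 14014.6 to 14703.3 CPM in knockdown cells under Ras, 14029.6 to 14469.6 CPM in NS cells under Ras, 18435.8 to 19396.6 CPM in knockdown cells under DMSO and 28186.6 to 28407.9 CPM in NS cells under DMSO. Krt5, Krt14 and Col17a1 carried this sum, and other basal markers went differently. With Ras in NS cells Trp63 rose (log2 change 0.23 ± 0.03, SE), with Ras in knockdown cells Cdh1 rose (0.27 ± 0.03), and with the knockdown Itga6 was higher under Ras (0.68 ± 0.03) and under DMSO (0.55 ± 0.03). The part of these markers in the results was not tested. Sums of the fibroblast, immune and melanocyte markers lay between 1.11 and 15.5 CPM, with Lum, Cd3e, Tyr and Dct at 0 counts in every library. The immune sum was nearly all Cd68, which was not constant. Cd68 had 15.5 and 14.8 CPM under Ras in knockdown cells, against 4.51 and 4.92 CPM under DMSO (1.69 ± 0.14). In NS cells Cd68 had 7.8 and 7.32 CPM under Ras, against 7.53 and 8.74 CPM under DMSO (-0.10 ± 0.14). The endothelial markers summed to 22.5 to 37 CPM, nearly all of it Pecam1. In bulk RNA, fewer cells of a type and less RNA per cell cannot be told apart.

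**Figure D1:**
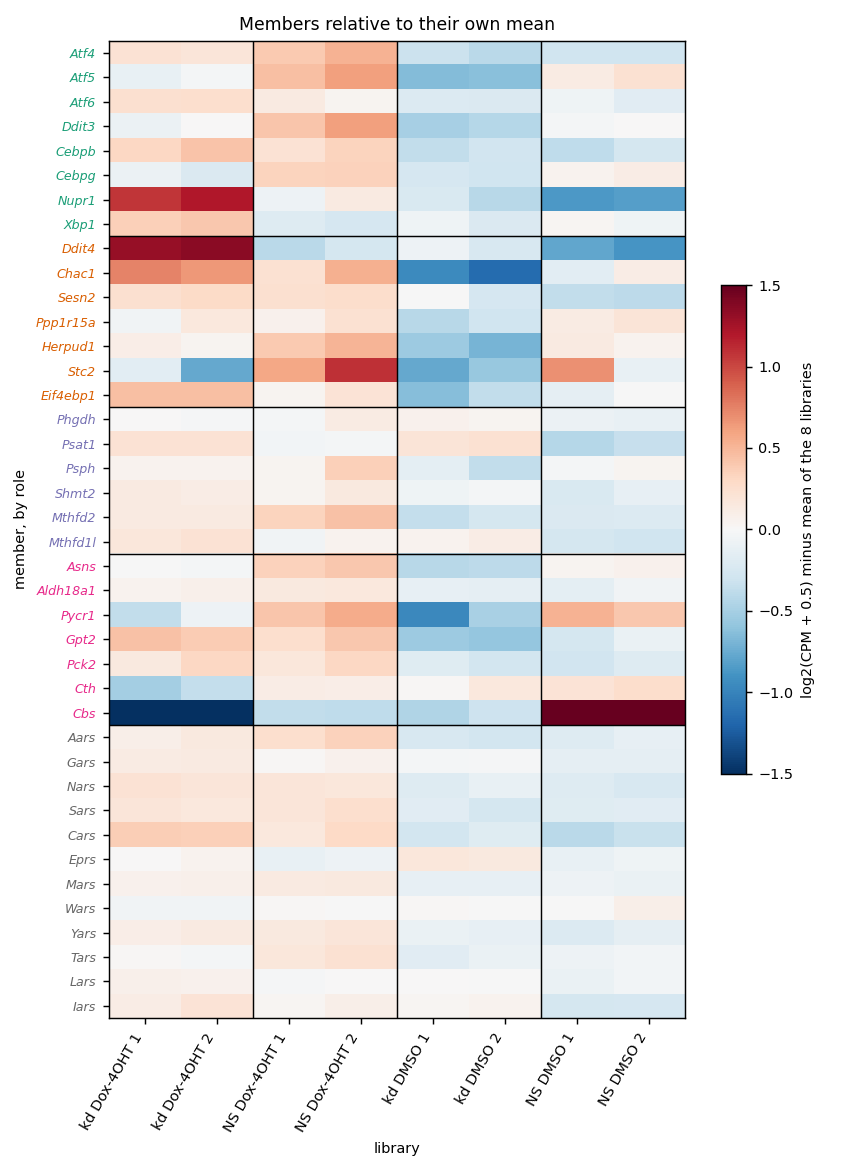
Level of the 40 members in each of the 8 libraries as log2(CPM + 0.5) minus the member's own mean over the 8 libraries. Rows are members coloured and divided by role, columns are libraries (kd, knockdown), and the colour scale ends at 1.5 either way. Most rows are redder in the 4 Dox-4OHT columns on the left than in the 4 DMSO columns, while Cbs is high in NS DMSO only and Ddit4 and Nupr1 are highest in knockdown Dox-4OHT.

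The first question was how Ras changed these genes in cells with an intact and with a silenced TGF-beta receptor. In NS cells 29 of the 40 members rose with Ras and 2 fell, that is 72.5% and 5%, where 20.8% of all 12538 tested genes rose and 21.3% fell (42.1% in either direction). In knockdown cells 30 rose and 3 fell (75% and 7.5%), where 19.5% of all genes rose and 16.6% fell (36.1% in either direction). The median log2 change of the members was 0.32 in NS and 0.39 in knockdown cells, against 0.00 over all genes in both. These responses use no library in common, and 25 members rose in both. The share of all genes that rose in both was not counted. It cannot exceed the 19.5% that rose in knockdown cells. The members were picked with results of these data known, so the counts describe them and carry no test of their own. Of the 11 members with the element, 10 rose in NS cells and 11 in knockdown cells, with medians of 0.33 and 0.39. Of the 22 promoters without it, 16 and 15 rose, with medians of 0.32 and 0.40.

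Among the transcription factors, Atf4 had 295 and 288 CPM under Ras in knockdown cells, against 202 and 192 CPM under DMSO. In NS cells it had 333 and 365 CPM under Ras, against 206 and 206 CPM under DMSO. Its libraries did not overlap between treatments. The log2 change was 0.57 ± 0.04 (SE) in knockdown cells (adjusted p = 2.69e-11) and 0.76 ± 0.04 in NS cells (adjusted p = 2.48e-14). Each adjusted p in the text comes from edgeR's quasi-likelihood test, adjusted by Benjamini-Hochberg across the 12538 genes. Nupr1, a stress-induced chromatin protein gene, had 60.5 and 66.0 CPM under Ras in knockdown cells, against 24.3 and 21.3 CPM under DMSO. In NS cells Nupr1 had 26.9 and 31.3 CPM under Ras, against 15.5 and 15.8 CPM under DMSO. It thus rose in both, by 1.47 ± 0.08 and 0.90 ± 0.10 on the log2 scale (adjusted p = 5.27e-14 and 1.77e-08). Ddit3, the gene of the stress factor CHOP, had 20.3 and 21.7 CPM under Ras in knockdown cells, against 15.2 and 16.0 CPM under DMSO. In NS cells Ddit3 had 29.0 and 33.4 CPM under Ras, against 21.1 and 21.7 CPM under DMSO. It rose by 0.42 ± 0.10 in knockdown and 0.54 ± 0.09 in NS cells. Cebpb, whose protein can pair with ATF4, rose by 0.70 ± 0.06 and 0.60 ± 0.06, and the ATF4-related Atf5 by 0.58 ± 0.08 and 0.37 ± 0.06. For Cebpg, another pairing partner, the change was 0.14 ± 0.06 in knockdown cells (adjusted p = 0.0753, but 0.0379 without knockdown Dox-4OHT replicate 2) and a rise of 0.27 ± 0.05 in NS cells.

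Atf6 and Xbp1 encode factors of the other branches of the unfolded protein response, activated by cleavage and by splicing. Atf6 rose by 0.47 ± 0.05 in knockdown and 0.21 ± 0.05 in NS cells. Xbp1 had 69.2 and 71.2 CPM under Ras in knockdown cells, against 51.3 and 46.2 CPM under DMSO. In NS cells Xbp1 had 46.9 and 45.3 CPM under Ras, against 55.1 and 51.6 CPM under DMSO. Xbp1 was the 1 member that passed in opposite directions, rising by 0.53 ± 0.06 in knockdown cells (adjusted p = 9.75e-08) and changing by -0.21 ± 0.06 in NS cells (adjusted p = 0.0081). The fall in NS cells no longer passed without NS Dox-4OHT replicate 2 (adjusted p of 0.0711), without NS DMSO replicate 1 (0.134) or by DESeq2 (0.082). Total Xbp1 counts do not separate its spliced form.

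The stress effectors showed the largest rises in knockdown cells. Chac1, which encodes a glutathione-degrading enzyme, had 33.1 and 31.1 CPM under Ras in knockdown cells, against 9.85 and 8.50 CPM under DMSO. In NS cells Chac1 had 23.0 and 28.5 CPM under Ras, against 17.5 and 21.2 CPM under DMSO. The knockdown libraries lay far apart between treatments, by 1.81 ± 0.12 on the log2 scale (adjusted p = 7.94e-11). Those of NS cells lay close together, and their rise of 0.42 ± 0.11 (adjusted p = 0.0028) no longer passed without NS Dox-4OHT replicate 2 (0.26, adjusted p = 0.101), or without NS DMSO replicate 1 (0.29, adjusted p = 0.0768). Ddit4, encoding the mTORC1 inhibitor REDD1, had 160 and 165 CPM under Ras in knockdown cells, against 60.9 and 54.5 CPM under DMSO. In NS cells Ddit4 had 48.5 and 53.5 CPM under Ras, against 37.3 and 34.5 CPM under DMSO. Its rises were 1.49 ± 0.06 (adjusted p = 2.94e-17) and 0.50 ± 0.07 (adjusted p = 1.2e-06).

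Eif4ebp1, encoding the translation repressor 4E-BP1, had 91.5 and 91.7 CPM under Ras in knockdown cells, against 42.9 and 51.9 CPM under DMSO, a rise of 0.95 ± 0.08. In NS cells Eif4ebp1 had 68.7 and 77.6 CPM under Ras, against 61.1 and 66.6 CPM under DMSO, and its change of 0.20 ± 0.08 fell just short (adjusted p = 0.0507). That change passed in 6 of 15 alternatives, among them the fits without NS Dox-4OHT replicate 1 (0.0123), knockdown DMSO replicate 1 (0.00897) or replicate 2 (0.00932). Herpud1, a gene of endoplasmic reticulum-associated degradation, rose by 0.71 ± 0.07 in knockdown and 0.36 ± 0.06 in NS cells. Sesn2, whose protein relays leucine shortage to mTORC1, had 17.5 and 18.1 CPM under Ras in knockdown cells, against 14.7 and 12.3 CPM under DMSO. In NS cells Sesn2 had 17.5 and 17.9 CPM under Ras, against 11.3 and 11.1 CPM under DMSO. It rose by 0.40 ± 0.11 and 0.66 ± 0.11. In knockdown cells its call ended without knockdown DMSO replicate 2 (0.27, adjusted p = 0.114) and by DESeq2 (0.0601). Ppp1r15a, encoding the GADD34 subunit that directs dephosphorylation of eIF2, rose by 0.42 ± 0.10 in knockdown cells and changed by -0.00 ± 0.09 in NS cells. Stc2, a secreted glycoprotein gene, was almost unread, with 4.5 counts in the knockdown and 27 in the NS libraries under Ras, against 1 in the knockdown and 18 in the NS libraries under DMSO. Its Ras to DMSO ratio was 3.79 in knockdown cells, with a 95% interval of 0.375 to 187 for counting error only.

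**Figure D2:**
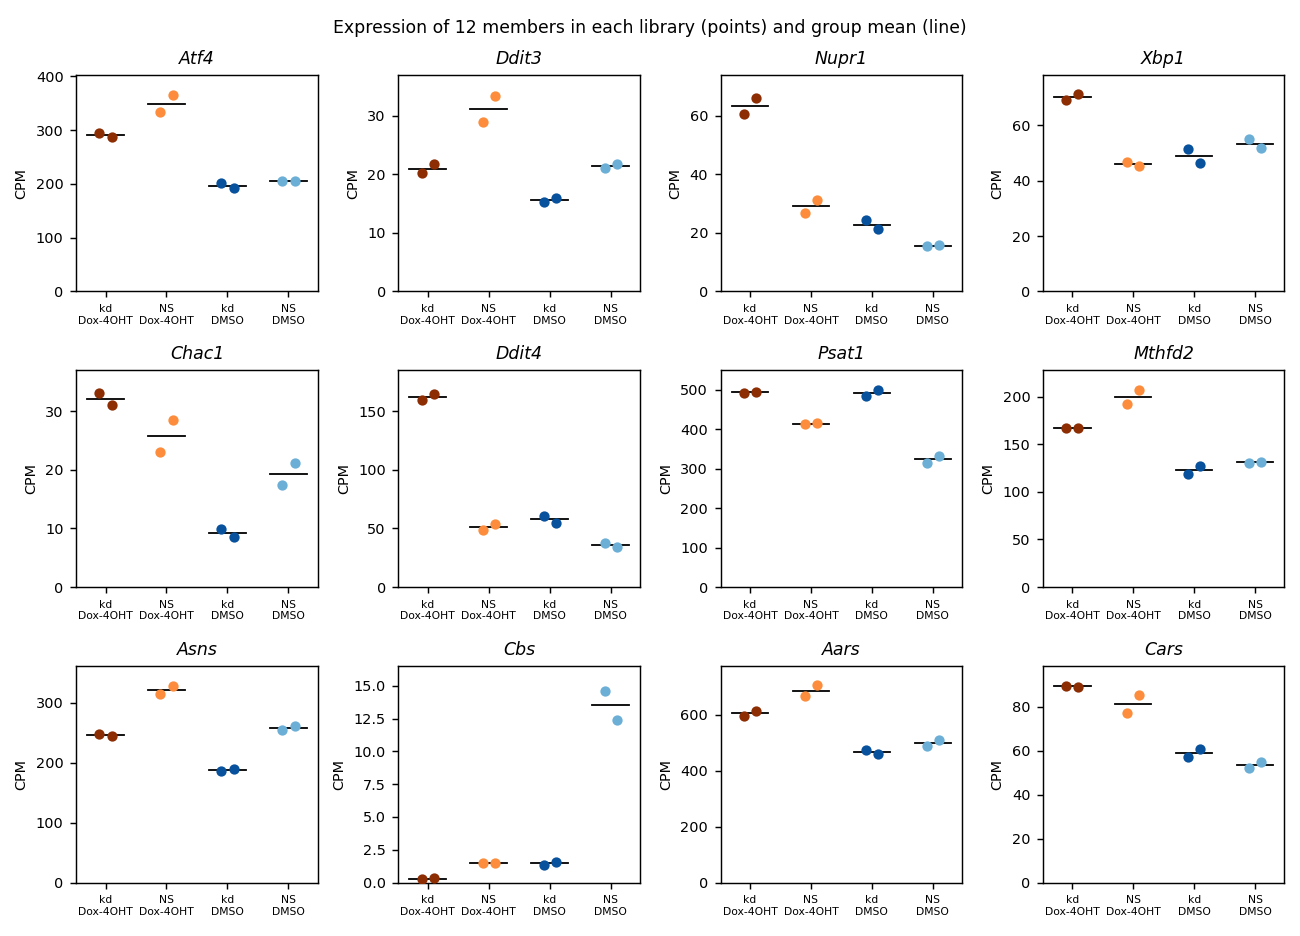
CPM of 12 members in each library, on linear axes from 0. Points are libraries (kd, knockdown), the short line is the mean of the 2 libraries of a group, and groups run from knockdown Dox-4OHT on the left to NS DMSO on the right. Chac1, Ddit4 and Nupr1 are highest in knockdown Dox-4OHT, whereas Atf4, Ddit3, Asns, Mthfd2 and Aars are highest in NS Dox-4OHT.

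Serine is made from a glycolytic intermediate in 3 steps, by the products of Phgdh, Psat1 and Psph, and Shmt2, Mthfd2 and Mthfd1l pass its one-carbon unit on in mitochondria. Of these 6 genes 3 rose with Ras in knockdown cells (50%) and 5 in NS cells (83.3%), where 19.5% and 20.8% of all genes did. DESeq2 called 3 and 4 of the 6 higher. Mthfd2 had 167 and 167 CPM under Ras in knockdown cells, against 119 and 127 CPM under DMSO. In NS cells Mthfd2 had 193 and 207 CPM under Ras, against 131 and 132 CPM under DMSO. It rose by 0.44 ± 0.04 (adjusted p = 7.91e-09) and 0.61 ± 0.04 (adjusted p = 4.53e-12), the largest rise of the 6 in both. Psat1 had 493 and 495 CPM under Ras in knockdown cells, against 485 and 500 CPM under DMSO. In NS cells it had 412 and 416 CPM under Ras, against 315 and 333 CPM under DMSO. The knockdown libraries overlapped (0.00 ± 0.03, adjusted p = 0.937), while in NS cells Psat1 rose by 0.35 ± 0.03 (adjusted p = 3.27e-09). Shmt2 rose by 0.17 ± 0.04 and 0.27 ± 0.04. Mthfd1l changed by 0.12 ± 0.05 in knockdown cells (adjusted p = 0.0662) and rose by 0.29 ± 0.05 in NS cells.

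Phgdh, the first step, had 100 and 98.1 CPM under Ras in knockdown cells, against 104 and 102 CPM under DMSO. In NS cells Phgdh had 97.2 and 108 CPM under Ras, against 93.5 and 92.1 CPM under DMSO. It changed by -0.06 ± 0.05 in knockdown cells (adjusted p = 0.388) and rose by 0.14 ± 0.05 in NS cells (adjusted p = 0.0215). That rise no longer passed without NS Dox-4OHT replicate 2 (0.07, adjusted p = 0.38), NS DMSO replicate 1 (0.0625) or NS DMSO replicate 2 (0.108), or by DESeq2 (0.154). Psph, the last step, rose by 0.32 ± 0.10 in knockdown cells (adjusted p = 0.0221) but not without knockdown Dox-4OHT replicate 1 (0.109), knockdown Dox-4OHT replicate 2 (0.086) or knockdown DMSO replicate 2 (0.201). In NS cells the change of Psph was 0.21 ± 0.09 (adjusted p = 0.0877), and it passed without NS Dox-4OHT replicate 1 (0.36, adjusted p = 0.000747) and without the filter on low counts (0.00498).

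Among enzymes of other amino acids, Asns, which makes asparagine, had 248 and 244 CPM under Ras in knockdown cells, against 186 and 189 CPM under DMSO. In NS cells Asns had 315 and 328 CPM under Ras, against 255 and 261 CPM under DMSO. Its rises were 0.39 ± 0.04 (adjusted p = 2.89e-09) and 0.32 ± 0.04 (adjusted p = 3.24e-08). Gpt2, the mitochondrial alanine transaminase gene, had 50.4 and 48.2 CPM under Ras in knockdown cells, against 25.1 and 24.5 CPM under DMSO. In NS cells Gpt2 had 44.2 and 49.1 CPM under Ras, against 30.7 and 34.4 CPM under DMSO. The rise of Gpt2 was 0.99 ± 0.08 in knockdown and 0.53 ± 0.07 in NS cells. Pck2, the mitochondrial phosphoenolpyruvate carboxykinase gene, rose by 0.46 ± 0.08 and 0.50 ± 0.08, and Aldh18a1, which starts proline synthesis from glutamate, by 0.20 ± 0.04 and 0.25 ± 0.04. Pycr1, which completes proline synthesis, rose by 0.50 ± 0.16 in knockdown cells (adjusted p = 0.0197) and changed by 0.02 ± 0.12 in NS cells. The rise of Pycr1 ended without knockdown Dox-4OHT replicate 2 (0.35, adjusted p = 0.203), without knockdown DMSO replicate 1 (0.26, adjusted p = 0.306) and by DESeq2 (0.0849).

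Both genes of the transsulfuration route from homocysteine to cysteine fell in knockdown cells, and Cbs fell in NS cells too. Cbs, its first enzyme, had 0.261 and 0.313 CPM under Ras in knockdown cells, against 1.37 and 1.55 CPM under DMSO. In NS cells it had 1.47 and 1.46 CPM under Ras, against 14.6 and 12.4 CPM under DMSO. Only the NS DMSO libraries held more than 1.55 CPM. Cbs fell with a log2 change of -2.33 ± 0.46 in knockdown cells (adjusted p = 0.000191), where the Ras libraries held 8 counts in all, and of -3.20 ± 0.19 in NS cells (adjusted p = 1.33e-13). Cth, the second enzyme, had 10.3 and 11.5 CPM under Ras in knockdown cells, against 15.1 and 16.6 CPM under DMSO, a change of -0.55 ± 0.11 (adjusted p = 0.000257). In NS cells Cth had 16.1 and 16.0 CPM under Ras, against 17.2 and 17.9 CPM under DMSO (-0.13 ± 0.10, adjusted p = 0.314).

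Aminoacyl-tRNA synthetases attach each amino acid to its tRNA. Of the 12 listed, 9 rose with Ras in knockdown cells and 1 fell (75% and 8.33%), where 19.5% and 16.6% of all genes did. In NS cells 9 rose and 0 fell (75% and 0%), where 20.8% and 21.3% of all genes did. The medians were 0.17 and 0.29. By edgeR the same 9 rose in both. DESeq2 called 7 higher and 1 lower in knockdown cells, and 9 and 0 in NS cells. The cysteine enzyme gene Cars had 89.6 and 89.0 CPM under Ras in knockdown cells, against 57.0 and 60.9 CPM under DMSO. In NS cells Cars had 77.0 and 85.3 CPM under Ras, against 52.1 and 54.9 CPM under DMSO. It had the largest rise of the 12 in both, 0.60 ± 0.06 each time (adjusted p = 2.88e-09 and 2.05e-09). The alanine enzyme gene Aars had 594 and 614 CPM under Ras in knockdown cells, against 473 and 459 CPM under DMSO. In NS cells Aars had 665 and 705 CPM under Ras, against 487 and 510 CPM under DMSO, and it rose by 0.37 ± 0.04 and 0.46 ± 0.04. Rises of Sars (serine) were 0.39 ± 0.04 in both and of Nars (asparagine) 0.35 ± 0.04 and 0.39 ± 0.04.

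Yars, Mars and Gars (tyrosine, methionine, glycine) rose by 0.24 ± 0.05, 0.20 ± 0.04 and 0.15 ± 0.03 in knockdown cells and by 0.33 ± 0.04, 0.22 ± 0.04 and 0.17 ± 0.03 in NS cells. Tars and Iars (threonine, isoleucine) rose by 0.13 ± 0.04 and 0.12 ± 0.04 in knockdown cells and by 0.26 ± 0.04 and 0.32 ± 0.04 in NS cells. In knockdown cells the call of Tars ended without knockdown Dox-4OHT replicate 1 (adjusted p = 0.133) or knockdown DMSO replicate 1 (0.174), that of Iars without knockdown Dox-4OHT replicate 2 (0.304) or knockdown DMSO replicate 1 (0.143), and both ended by DESeq2 (0.0739 and 0.0955). Wars and Lars (tryptophan, leucine) did not pass in either, with changes of -0.07 ± 0.05 and 0.07 ± 0.04 in knockdown cells and -0.04 ± 0.05 and 0.06 ± 0.04 in NS cells. Eprs, a fused glutamate and proline enzyme gene, had 445 and 460 CPM under Ras in knockdown cells, against 500 and 493 CPM under DMSO, and fell there (-0.13 ± 0.03, adjusted p = 0.00224, but 0.0669 without knockdown Dox-4OHT replicate 1) and changed by -0.00 ± 0.03 in NS cells.

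**Figure D3:**
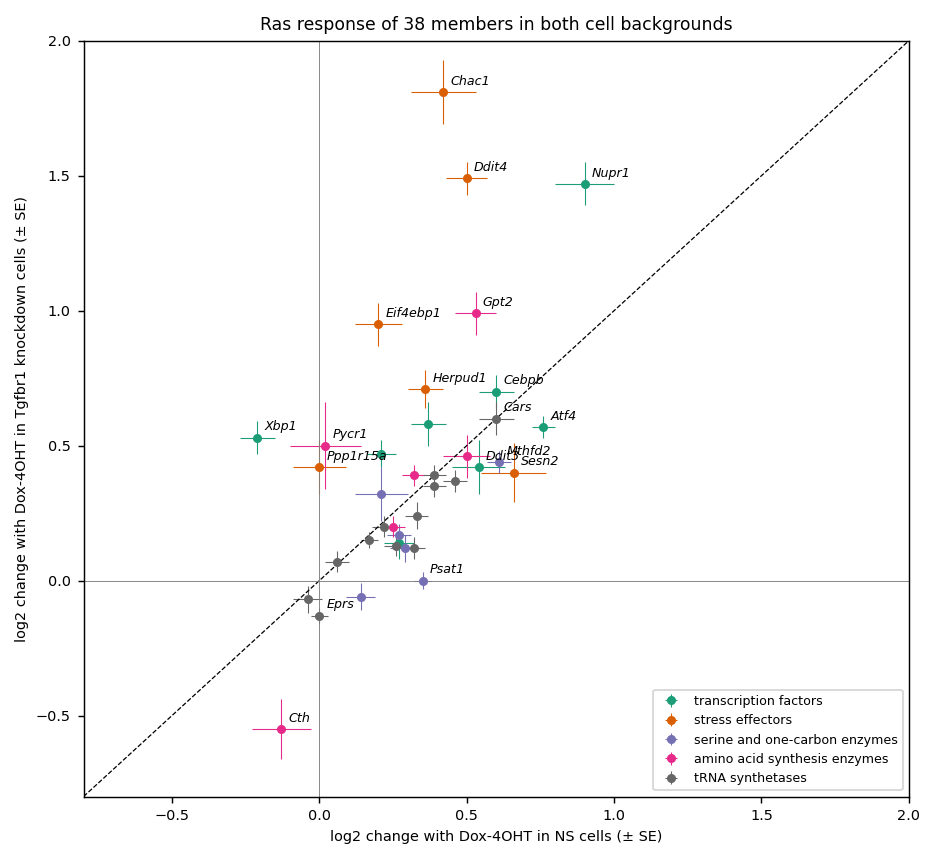
Log2 change with Dox-4OHT in knockdown cells (vertical axis) against that in NS cells (horizontal axis) for 38 members, with bars of ± 1 SE and colours for roles; Stc2 and Cbs are left out for low counts and range. The dashed line marks equal responses: tRNA synthetases lie near it, with Cars at 0.60 on both axes, while Chac1, Ddit4, Eif4ebp1, Xbp1 and Gpt2 lie well above it and Psat1 below it.

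Whether the Ras response itself differed between knockdown and NS cells was tested as an interaction. It passed for 16 of the 40 members, 9 with a larger log2 change in knockdown cells and 7 with a smaller one. This share, 40%, is near the 38.2% of all tested genes that passed (20.2% and 18% by direction), so it is not a result about the members as a group. Of 7 stress effectors 5 passed, each with the larger log2 change in knockdown cells, namely Chac1 by 1.39 ± 0.16 (adjusted p = 7.08e-07), Ddit4 by 0.99 ± 0.09 (adjusted p = 2.2e-09), Eif4ebp1 by 0.75 ± 0.11 (adjusted p = 8.22e-05), Ppp1r15a by 0.42 ± 0.13 (adjusted p = 0.0134) and Herpud1 by 0.35 ± 0.10 (adjusted p = 0.00675). Xbp1, Nupr1, Gpt2 and Atf6 differed in the same direction, by 0.74 ± 0.09, 0.58 ± 0.13, 0.47 ± 0.10 and 0.27 ± 0.07. The 3 serine and one-carbon genes that passed had the smaller log2 change in knockdown cells, with Psat1 at -0.35 ± 0.05 (adjusted p = 2.09e-06), Phgdh at -0.20 ± 0.07 and Mthfd2 at -0.17 ± 0.06. Atf4 itself differed by -0.19 ± 0.06 (adjusted p = 0.01). Cth, Iars and Eprs differed by -0.42 ± 0.15, -0.20 ± 0.05 and -0.13 ± 0.05.

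Of the 16 interaction calls 7 passed under every alternative, where 27 of 33 did for Ras in knockdown cells and 28 of 31 for Ras in NS cells. Those of Chac1, Ddit4, Eif4ebp1, Xbp1, Nupr1, Gpt2 and Psat1 passed under all 14 of them. The count of members with the smaller log2 change in knockdown cells was 7 by edgeR, but 1 by DESeq2, and it moved when single libraries were left out. Smaller is meant by sign. Cth and Eprs changed further downward in knockdown cells (-0.55 and -0.13) than in NS cells (-0.13 and -0.00). Atf4 lost its call without NS Dox-4OHT replicate 2 (adjusted p = 0.0718) and by DESeq2 (0.0912), and Atf6 without NS DMSO replicate 1 (0.0551). Herpud1 lost it without knockdown DMSO replicate 2 (0.0725) and by DESeq2 (0.0719), and Iars without knockdown Dox-4OHT replicate 1 (0.0602) and by DESeq2 (0.0619). Ppp1r15a lost it with any 1 of 4 libraries left out (adjusted p from 0.052 to 0.0979) and Phgdh with any 1 of 4 left out (0.0508 to 0.165). Eprs lost it with any 1 of 4 left out (0.058 to 0.164), Cth with any 1 of 5 left out (0.0508 to 0.14) and Mthfd2 with any 1 of 6 left out (0.0599 to 0.179). These 5 calls also ended by DESeq2, with Ppp1r15a at 0.0976, Phgdh at 0.185, Eprs at 0.183, and Cth and Mthfd2 at 0.207. For 10 of the 12 synthetases the difference did not pass. In Cars it was -0.01 ± 0.08 and in Sars -0.01 ± 0.05, and all 10 estimates lay between -0.13 and 0.01. Among uncalled members, Tars passed without NS Dox-4OHT replicate 1 (0.0354) or knockdown DMSO replicate 1 (0.0256), Mthfd1l without the same libraries (0.0219 and 0.0403), and Pycr1 without knockdown Dox-4OHT replicate 1 (0.0345) or knockdown DMSO replicate 2 (0.0141). Aars and Shmt2 passed without NS Dox-4OHT replicate 1 (0.0442 and 0.0482), and Atf5 without NS Dox-4OHT replicate 2 (0.0387).

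The second question was how these genes differed between knockdown and NS cells at a given treatment. Under Ras 12 of the 40 members were higher in knockdown than in NS cells and 13 lower (30% and 32.5%), where 30.5% of all genes were higher and 29.7% lower (60.2% together). Under DMSO 11 were higher and 14 lower (27.5% and 35%), where 30.9% of all genes were higher and 31% lower (61.9% together). These shares are near the background, so no shift of the group as a whole is shown, and the medians were -0.04 and -0.05. Single members nevertheless moved far. Under both treatments 8 were higher and 9 lower, in comparisons that share no library. The share of all genes called the same way under both was not counted, so these 2 counts only describe the members.

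Ddit4 had the largest excess in knockdown cells under both treatments, followed by Nupr1 under Ras and by Psat1 under DMSO. Under Ras Ddit4 had 160 and 165 CPM in knockdown cells, against 48.5 and 53.5 CPM in NS cells, a log2 change of 1.67 ± 0.06 (adjusted p = 4.84e-19). Under DMSO it had 60.9 and 54.5 CPM in knockdown cells, against 37.3 and 34.5 CPM in NS cells (0.68 ± 0.07, adjusted p = 1.96e-09). Nupr1 was higher by 1.11 ± 0.08 under Ras (adjusted p = 1.04e-12) and by 0.54 ± 0.10 under DMSO (adjusted p = 4.14e-05). Psat1 was higher by 0.26 ± 0.03 and 0.60 ± 0.03. Mthfd1l had 96.0 and 99.3 CPM in knockdown cells under Ras, against 82.3 and 88.3 CPM in NS cells, and 88.1 and 91.8 CPM in knockdown cells under DMSO, against 70.9 and 68.9 CPM in NS cells (0.19 ± 0.05 and 0.36 ± 0.05). Xbp1 and Atf6 were higher under Ras (0.61 ± 0.06 and 0.17 ± 0.05) and changed by -0.13 ± 0.06 and -0.10 ± 0.05 under DMSO (adjusted p = 0.0672 and 0.0942). The call of Atf6 under Ras ended without NS Dox-4OHT replicate 2 (0.0792), and Xbp1 under DMSO passed as lower without knockdown DMSO replicate 1 (-0.19, adjusted p = 0.0292).

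Members lower in knockdown cells under both treatments included further transcription factors. Atf5 had 37.2 and 39.3 CPM in knockdown cells under Ras, against 55.1 and 61.4 CPM in NS cells. Under DMSO Atf5 had 25.4 and 25.7 CPM in knockdown cells, against 43.5 and 47.0 CPM in NS cells. The groups were well apart, by -0.61 ± 0.07 (adjusted p = 9.72e-09) and -0.82 ± 0.07 (adjusted p = 2.47e-10). Ddit3 was lower by a log2 change of -0.57 ± 0.09 under Ras and -0.46 ± 0.10 under DMSO, and Cebpg of -0.49 ± 0.06 and -0.36 ± 0.06. For Atf4 the change was -0.26 ± 0.04 under Ras (adjusted p = 3.42e-06) and -0.07 ± 0.04 under DMSO (adjusted p = 0.17). Cebpb did not pass, with 0.10 ± 0.06 and -0.00 ± 0.07.

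The amino acid enzymes that changed with the knockdown were all lower. Asns changed by -0.39 ± 0.04 under Ras and -0.46 ± 0.04 under DMSO, and Pycr1 by -0.75 ± 0.14 and -1.22 ± 0.15. Pycr1 had 7.62 and 9.46 CPM in knockdown cells under Ras, against 13.5 and 14.9 CPM in NS cells. Under DMSO it had 4.89 and 7.03 CPM in knockdown cells, against 14.6 and 13.4 CPM in NS cells. Cbs was lower in knockdown cells, with a log2 change of -2.33 ± 0.46 under Ras (adjusted p = 8.11e-05) and of -3.20 ± 0.19 under DMSO (adjusted p = 3.6e-14), a count ratio of 0.184 (95% interval 0.0744 to 0.399) and 0.113 (0.0797 to 0.156). Cth was lower under Ras (-0.56 ± 0.11) and at -0.14 ± 0.10 under DMSO (adjusted p = 0.218). Gpt2 did the reverse, with 0.08 ± 0.07 under Ras (adjusted p = 0.308) and a lower level under DMSO (-0.39 ± 0.08). Pck2 and Aldh18a1 did not pass, except Aldh18a1 under Ras without Rn45s (-0.10, adjusted p = 0.0353).

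Chac1 and Eif4ebp1 were higher in knockdown cells under Ras and lower under DMSO. Under Ras Chac1 had 33.1 and 31.1 CPM in knockdown cells, against 23.0 and 28.5 CPM in NS cells (0.32 ± 0.10, adjusted p = 0.00831). Under DMSO it had 9.85 and 8.50 CPM in knockdown cells, against 17.5 and 21.2 CPM in NS cells (-1.07 ± 0.13, adjusted p = 3.13e-07). The excess under Ras did not pass without knockdown Dox-4OHT replicate 1 (0.0834), NS Dox-4OHT replicate 1 (0.165) or by DESeq2 (0.0542), whereas the deficit under DMSO passed under all alternatives. Eif4ebp1 was at 0.32 ± 0.07 under Ras (adjusted p = 0.00153) and -0.42 ± 0.08 under DMSO (adjusted p = 0.0004). Herpud1 was lower under both (-0.38 ± 0.07 and -0.73 ± 0.07), and Ppp1r15a under DMSO (-0.52 ± 0.10), with -0.10 ± 0.09 under Ras. Sesn2 changed by 0.01 ± 0.10 under Ras and was higher under DMSO (0.27 ± 0.11, adjusted p = 0.0418), a call that ended without knockdown DMSO replicate 1 (0.341) or either NS DMSO library (0.0945 and 0.111), and by DESeq2 (0.177). Stc2 had 4.5 counts in knockdown and 27 in NS libraries under Ras, a ratio of 0.136 (95% interval 0.0347 to 0.391). Under DMSO it had 1 count in knockdown and 18 in NS libraries, a ratio of 0.0623 (0.0015 to 0.395), and its call (adjusted p = 0.00528) ended without knockdown DMSO replicate 1 (0.0563) or NS DMSO replicate 1 (0.133).

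Knockdown effects on the synthetases were small, from -0.20 to 0.14 on the log2 scale under Ras and from -0.10 to 0.30 under DMSO. Iars had 273 and 293 CPM in knockdown cells under Ras, against 258 and 269 CPM in NS cells. Under DMSO Iars had 259 and 263 CPM in knockdown cells, against 211 and 212 CPM in NS cells. The log2 change was 0.10 ± 0.04 under Ras and 0.30 ± 0.04 under DMSO, and the call under Ras ended without knockdown Dox-4OHT replicate 2 (adjusted p of 0.348) or with NS Dox-4OHT replicate 1 left out (0.162). Eprs was higher under both (0.12 ± 0.03 and 0.25 ± 0.03), under Ras not without knockdown Dox-4OHT replicate 2 (0.0629). Gars and Cars also passed as higher under both, at 0.09 ± 0.03 and 0.14 ± 0.05 under Ras and 0.11 ± 0.03 and 0.14 ± 0.06 under DMSO. The call of Gars under Ras ended without either knockdown Dox-4OHT library (0.0703 and 0.111) or NS Dox-4OHT replicate 1 (0.163), and that of Cars without the same libraries (0.118, 0.0821 and 0.379). Under DMSO that of Cars ended without either knockdown Dox-4OHT library (0.0532 and 0.0522), knockdown DMSO replicate 2 (0.281) or NS DMSO replicate 1 (0.216). By DESeq2 the calls of Gars (0.0701), Cars (0.139) and Iars (0.0809) under Ras and of Cars (0.175) and Aars (0.0981) under DMSO also ended. Aars was lower under both (-0.18 ± 0.04 and -0.10 ± 0.04), under DMSO not without knockdown DMSO replicate 2 (0.185) or NS DMSO replicate 2 (0.308), and Tars was lower under Ras (-0.20 ± 0.04).

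Of the serine and one-carbon genes beyond Psat1 and Mthfd1l, Mthfd2 was lower under Ras (-0.26 ± 0.04, adjusted p = 5.1e-06) and at -0.09 ± 0.04 under DMSO (adjusted p = 0.0662, but 0.0361 without knockdown DMSO replicate 2). Phgdh and Shmt2 did not pass under Ras (-0.05 ± 0.05 and 0.03 ± 0.04) and were higher under DMSO (0.15 ± 0.05 and 0.13 ± 0.04). The DMSO call of Shmt2 ended without knockdown DMSO replicate 2 (0.0726) or NS DMSO replicate 1 (0.193), and both calls ended by DESeq2 (0.0687 for Phgdh and 0.0659 for Shmt2). Psph was at -0.16 ± 0.09 under Ras, passing without NS Dox-4OHT replicate 1 (-0.30, adjusted p = 0.00211), and lower under DMSO (-0.26 ± 0.10, adjusted p = 0.031). That DMSO call ended without knockdown DMSO replicate 2 (0.278) or either NS DMSO library (0.0828 and 0.168), by DESeq2 (0.052) and with the replicate number as a block (0.0508).

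**Figure D4:**
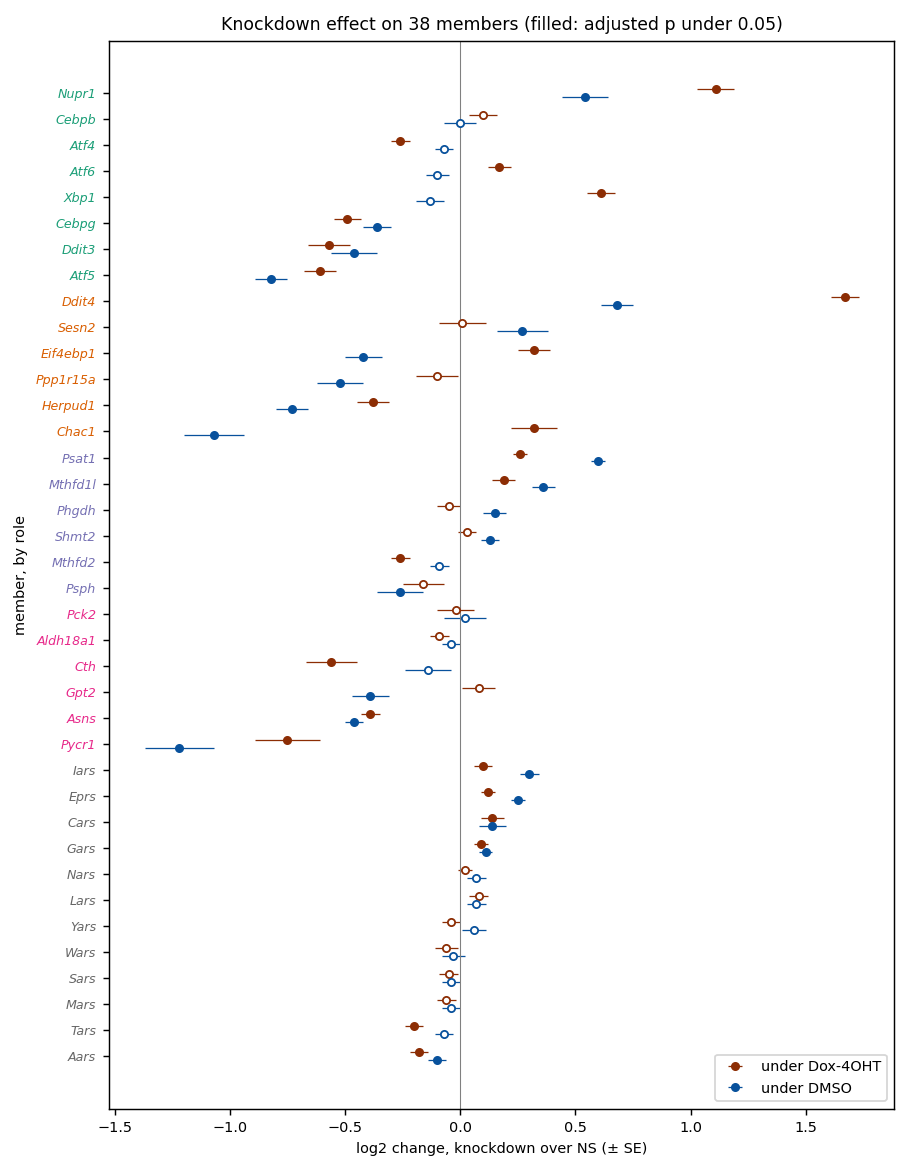
Log2 change of knockdown over NS cells for 38 members, with bars of ± 1 SE, under Dox-4OHT (brown, drawn above) and DMSO (blue, drawn below); members are ordered by role and then by the DMSO value, and Stc2 and Cbs are left out. Filled points passed an adjusted p of 0.05. Ddit4 lies farthest right, at 1.67 under Dox-4OHT, Pycr1 farthest left, at -1.22 under DMSO, and the tRNA synthetases all lie between -0.20 and 0.30.

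Other genes of the pathway were counted by list. Of 19 tested further ATF4 response genes, 15 rose and 2 fell with Ras in knockdown cells. DESeq2 called 12 of them higher and 0 lower there. Of all genes, 19.5% rose and 16.6% fell in knockdown cells. In NS cells 7 of the 19 rose and 3 fell (6 and 3 by DESeq2), where 20.8% and 21.3% of all genes did. Atf3, a stress-induced relative of ATF4, rose by 2.12 ± 0.09 and 2.40 ± 0.09. Slc7a11, the cystine transporter gene, had 73.1 and 81.7 CPM under Ras in knockdown cells, against 59.7 and 55.5 CPM under DMSO. In NS cells Slc7a11 had 71.6 and 69.9 CPM under Ras, against 176 and 177 CPM under DMSO. It rose by 0.42 ± 0.06 in knockdown cells and fell in NS cells (-1.32 ± 0.05), an interaction of 1.74 ± 0.08 (adjusted p = 1.43e-15). As with Cbs, its NS DMSO libraries stood above all the others. Slc6a9, a glycine transporter gene, rose by 1.02 ± 0.05 in knockdown and 0.27 ± 0.06 in NS cells. Vldlr, a lipoprotein receptor gene, rose by 0.53 ± 0.07 in knockdown cells and fell in NS cells, by a log2 change of -0.73 ± 0.06 (interaction adjusted p = 5.29e-09). With the knockdown 7 of the 19 were higher and 6 lower under Ras (36.8% and 31.6%), where 30.5% and 29.7% of all genes were. Under DMSO 1 was higher and 10 lower (5.26% and 52.6%), where 30.9% and 31% of all genes were. Of the 19, DESeq2 called 4 higher and 5 lower under Ras, and 1 and 8 under DMSO. Slc3a2, the shared heavy chain gene of several amino acid transporters, was lower under both (-0.57 ± 0.04 and -0.67 ± 0.04).

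Cytosolic synthetases outside the member list were counted too. Of these 8 genes and 3 genes of proteins bound in the synthetase complex, 6 fell with Ras in knockdown cells by edgeR and 0 rose (also 0 at an unadjusted p under 0.05 and 0 by DESeq2, which called 2 lower). In NS cells 4 rose and 1 fell by edgeR, and 2 rose by DESeq2. By edgeR 0% rose and 54.5% fell in knockdown cells, where 19.5% and 16.6% of all genes did. In NS cells 36.4% rose and 9.09% fell, where 20.8% and 21.3% of all genes did. Kars, the lysine enzyme gene, fell by 0.20 on the log2 scale in knockdown cells (SE 0.03, adjusted p = 4.54e-05) and rose by 0.12 ± 0.03 in NS cells, while Vars (valine) changed by -0.02 ± 0.03 in knockdown cells and rose by 0.26 ± 0.03 in NS cells. Hars (histidine) fell in both (-0.25 ± 0.04 and -0.13 ± 0.04), and Farsb, of the phenylalanine enzyme, changed by -0.03 ± 0.05 and rose by 0.23 ± 0.05. Qars (glutamine) was higher in knockdown than in NS cells by 0.46 ± 0.05 under Ras and 0.26 ± 0.05 under DMSO. The median of the 11 was -0.11 in knockdown and 0.09 in NS cells, beside 0.17 and 0.29 for the 12 members; the difference between the lists was not tested. Of 17 mitochondrial synthetase genes, 2 fell in knockdown cells (1 by DESeq2), Rars2 (-0.35 ± 0.06) and Iars2 (-0.12 ± 0.04). In NS cells 3 rose (1 by DESeq2), among them Yars2 (0.29 ± 0.07), and 1 fell, Mars2 (-0.49 ± 0.09). The mitochondrial shares by edgeR were under those of all genes, with 0% rising and 11.8% falling in knockdown cells. In NS cells 17.6% rose and 5.88% fell. Hars2 was lower with the knockdown (-0.71 ± 0.08 under Ras and -0.49 ± 0.08 under DMSO).

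Of 10 tested further one-carbon and folate genes, 7 fell and 2 rose with Ras in knockdown cells (6 and 1 by DESeq2), where 16.6% of all genes fell and 19.5% rose. Tyms, the thymidylate synthase gene, fell there (-0.40 ± 0.05) and rose by 0.25 ± 0.05 in NS cells. Aldh1l2, a mitochondrial folate enzyme gene, rose by 1.12 ± 0.11 in knockdown and 0.91 ± 0.09 in NS cells. In NS cells 3 of the 10 rose (2 by DESeq2) and 0 fell, where 20.8% of all genes rose and 21.3% fell. Mthfd1, the cytosolic folate enzyme gene, and Gcsh, of the glycine cleavage system, fell in knockdown cells (-0.28 ± 0.04 and -0.35 ± 0.06). Of 15 genes of the eIF2 kinases and the eIF2 machinery, 2 rose and 5 fell in knockdown cells (1 and 2 by DESeq2). In NS cells 2 rose and 3 fell (2 and 1 by DESeq2). The edgeR shares were 13.3% and 33.3% in knockdown cells, against 19.5% and 16.6% of all genes. In NS cells they were 13.3% and 20%, against 20.8% and 21.3% of all genes. Eif2ak3, encoding the kinase PERK of the endoplasmic reticulum, rose by 0.39 ± 0.06 in knockdown cells and changed by -0.13 ± 0.06 in NS cells (interaction 0.52 ± 0.09, adjusted p = 4.83e-05). Eif2ak4, encoding the amino acid sensor GCN2, changed by 0.01 ± 0.07 and 0.01 ± 0.08 with Ras, but was higher in knockdown than in NS cells, by 0.44 ± 0.07 under Ras and 0.43 ± 0.07 under DMSO. Eif2ak2, encoding the double-stranded RNA sensor PKR, changed by 0.06 ± 0.07 in knockdown cells and fell in NS cells (-0.41 ± 0.07). Ppp1r15b, an eIF2 phosphatase subunit gene, rose by 0.12 ± 0.04 and 0.35 ± 0.04, and Eif2b1, of the exchange factor eIF2B, fell in knockdown cells (-0.27 ± 0.05). Impact, whose product restrains GCN2, was higher in knockdown cells by 0.95 ± 0.08 and 0.67 ± 0.07.

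Of 19 tested endoplasmic reticulum chaperone and related genes, 7 rose with Ras in knockdown cells (4 by DESeq2), and 1 rose and 7 fell in NS cells. The shares called in either direction, 36.8% and 42.1%, are near the 36.1% and 42.1% of all genes, but the directions differed. In knockdown cells 36.8% rose and 0% fell, where 19.5% and 16.6% of all genes did. In NS cells 5.26% rose and 36.8% fell (1 and 6 genes by DESeq2), where 20.8% and 21.3% of all genes did. The difference from all genes was not tested. Calr, the chaperone calreticulin, changed by 0.01 ± 0.03 in knockdown cells and fell in NS cells (-0.37 ± 0.03). Dnajb9 and Sdf2l1, cochaperone genes of the same compartment, rose by 0.46 ± 0.12 and 0.43 ± 0.08 in knockdown cells and changed by -0.22 ± 0.12 and -0.05 ± 0.08 in NS cells. With the knockdown 14 of the 19 were higher and 2 lower under Ras, where 30.5% of all genes were higher and 29.7% lower. Under DMSO 10 were higher and 4 lower, where 30.9% of all genes were higher and 31% lower. These knockdown counts were not tested against all genes either. Os9, of endoplasmic reticulum-associated degradation, rose by 0.17 ± 0.04 in knockdown and fell in NS cells (-0.28 ± 0.04). Pdia6 and Pdia3, disulfide isomerase genes, were higher with the knockdown by 0.66 ± 0.04 and 0.57 ± 0.03 under Ras and by 0.60 ± 0.04 and 0.35 ± 0.03 under DMSO, and Hsp90b1, encoding the chaperone GRP94, by 0.42 ± 0.03 and 0.55 ± 0.03.

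**Figure D5:**
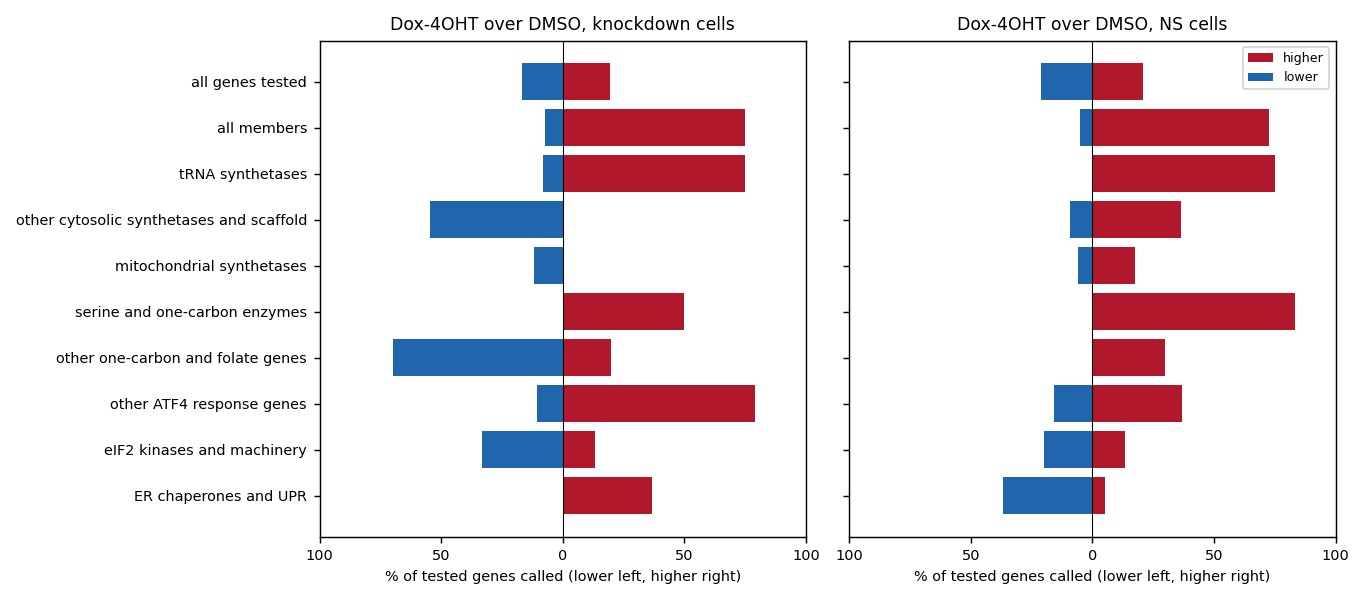
Share of the tested genes of each list that rose (red, right) or fell (blue, left) with Dox-4OHT at an adjusted p of 0.05, in knockdown cells (left panel) and NS cells (right panel). All genes tested are in the top row; the 40 members rose in 75% and 72.5% of cases, against 19.5% and 20.8% of all genes, and the cytosolic synthetases outside the member list had no rise in knockdown cells.

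Per length of transcript, the members spanned a wide range of levels. Psat1 was the highest in CPM per kilobase in 3 groups, with 229 in knockdown cells under Ras, 228 in knockdown cells under DMSO and 150 in NS cells under DMSO. In NS cells under Ras Atf4 was first with 202 and Psat1 second with 191. Stc2 was the lowest throughout, at 0.0729 and 0.585 CPM per kilobase under Ras in knockdown and NS cells and 0.0197 and 0.323 under DMSO. Nupr1 was 8th among the 40 in knockdown cells under Ras, 18th in NS cells under Ras, 18th in knockdown cells under DMSO and 22nd in NS cells under DMSO. By group mean, 17 members each were highest in knockdown cells under Ras and in NS cells under Ras, 2 in knockdown cells under DMSO and 4 in NS cells under DMSO.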

How the data were processed

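Messenger RNA was measured in 8 libraries, 2 in each of 4 groups given by their titles. The deposited table holds each estimated count, made by the authors per the submitters' processing notes, for 24909 gene entries in steps of 0.5, not normalized. Per the submitters' processing notes and the series' design text, TopHat and HOMER were used at isoform level with mm9. DESeq2 is named there too, with no role. Software versions, strand setting and handling of multiply matched reads: not given in the sources used here. Gene lengths in the same table served only for levels per kilobase. Where entries shared a symbol, that of the highest total stayed (2 dropped). Without a known strand setting, reads in overlaps are uncertain for Atf5, Atf6, Ddit3, Cebpg, Ppp1r15a, Psph, Shmt2, Aars, Mars and Wars, which overlap another protein-coding gene in RefSeq (GRCm38.p6), Ddit3 and Mars each other.

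Counts were rounded to whole numbers and tested with edgeR 4.0.16 in R 4.3.3: filterByExpr (12538 genes kept, 99.96% of counts), TMM, 1 model of 4 group means on all 8 libraries (4 residual degrees of freedom, biological coefficient of variation 3.37%), robust quasi-likelihood F test, two-sided, calls at a Benjamini-Hochberg adjusted p of 0.05. The procedure was tested on simulated data for Ras in NS cells only (12350 genes tested). At each size 49 or 50 genes were changed, and all genes were given the same spread. It recovered 60% of 1.25-fold changes, 77.6% of 1.5-fold changes and 96% of 2-fold and of 4-fold changes, with 10 false calls. Small changes can therefore be missed. The real data held far more calls (5281 for Ras in NS cells), so these rates need not hold there or in the other comparisons. CPM use the TMM factors. Intervals of count ratios are exact binomial (95%) and cover counting error only. Alternatives were DESeq2 1.42.0, RLE size factors, no or a stricter filter, only the 4 libraries of a comparison, a replicate block, Rn45s left out and each library left out.

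The members and lists were chosen with earlier results of these data known. By rule, values in every library are given for Atf4, for the 4 highest and 4 lowest log2 changes past the test at a mean of at least 5 CPM, and for the smallest p of each role; of each other list the 2 genes with the smallest p in a comparison are named. A gene named by that rule is not reported here. Values in every library of Asns, Eif4ebp1 and some others go beyond that in single comparisons. Replicates correlated at 0.9964 to 0.9973 (log2 CPM across genes, which are not independent), and differed beyond sampling noise (chi-square per degree of freedom 2.31 to 12.9).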

Additional observations from a re-analysis of the deposited data

Results flagged for a closer look

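The Ras response differed between knockdown and NS cells, by the interaction test at an adjusted p of 0.05 (edgeR's quasi-likelihood test, all genes tested), for 16 of the 40 members. Each value here is the log2 change with Dox and 4OHT in knockdown cells minus that in NS cells. Positive differences were 1.39 for Chac1, 0.99 for Ddit4, 0.75 for Eif4ebp1, 0.74 for Xbp1, 0.58 for Nupr1, 0.47 for Gpt2, 0.42 for Ppp1r15a, 0.35 for Herpud1 and 0.27 for Atf6. Negative differences were -0.42 for Cth, -0.35 for Psat1, -0.20 for Phgdh, -0.20 for Iars, -0.19 for Atf4, -0.17 for Mthfd2 and -0.13 for Eprs. The share of members that passed, 40%, is near the 38.2% of all genes. The groups of 2 libraries are too small for a search for libraries that stand apart.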

How the results depend on the processing

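Of the 200 results for a member in a comparison, 130 passed, and 99 of these passed under every alternative that could be computed. No called result changed sign under any alternative. Single alternatives ended 98 calls and added 28, of 2951 values. In 30 cases a value that did not pass changed sign without passing, with sizes up to 0.07 except for Stc2 (Ras in knockdown cells -2.34 and interaction -3.15 without knockdown Dox-4OHT replicate 1, interaction -0.14 without NS DMSO replicate 1). DESeq2 ended 24 calls and added none. It called 3265 of all genes for Ras in NS cells (edgeR 5281), 2628 for Ras in knockdown cells (4531) and 2828 for the interaction (4791). Of members it called 1 lower for Ras in NS cells (edgeR 2), 7 higher for the knockdown under DMSO (11) and 1 lower for the interaction (7). Leaving out each library in turn gave 3888 to 5329 genes for Ras in NS cells, 3306 to 4670 for Ras in knockdown cells, 6585 to 7608 for the knockdown under Ras (7542 with all), 6650 to 7904 under DMSO (7763) and 3918 to 4533 for the interaction. Members called higher then were 27 to 31, 27 to 30, 8 to 12, 8 to 11 and 8 to 10 in the same order, and members called lower 1 to 2, 2 to 3, 13 to 14, 12 to 14 and 2 to 10; the cause was not tested. Replicates share only a number: differences between replicate 1 and replicate 2 correlated at -0.0364 to 0.0574 between groups, and the replicate block ended 1 call (Psph, knockdown under DMSO, -0.26, adjusted p = 0.0508) and added 1 (Eif4ebp1, Ras in NS cells, 0.20, adjusted p = 0.00791). RLE size factors and the count without Rn45s, whose share of counts ran from 0.387% to 2.76%, ended none and added 1 each. At this depth Stc2 and, in knockdown cells under Ras, Cbs are limited by single-digit counts.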

Other observations

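Lars2, the mitochondrial leucine synthetase gene, picked after its values were seen, spread widely within groups and moved with the share of reads on the ribosomal RNA gene Rn45s. In knockdown cells under Ras its level was 1284.7 and 1363.0 CPM, with Rn45s at 2.49% and 2.57% of counts. In NS cells under Ras it was 643 and 1649.3 CPM, with Rn45s at 0.916% and 2.76%. Under DMSO, knockdown libraries held 334 and 845 CPM (Rn45s 0.387% and 1.36%), and NS libraries 584 and 483 CPM (0.816% and 0.549%). Its adjusted p ran from 0.267 to 0.969 over the 5 comparisons by edgeR. The part of ribosomal RNA reads in its counts was not tested.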
